A study of Rattus norvegicus with 13 samples.

Results

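The Hox genes of rat fat were 22 of the 14506 genes that could be named on the arrays. They were all genes whose symbol in the platform annotation is Hoxa, Hoxb, Hoxc or Hoxd followed by a number, and each had 1 probe. RefSeq lists 39 such genes for the rat, in 4 chromosomal clusters, and the arrays measured 5 of 11 genes of cluster A (chromosome 4), 7 of 10 of cluster B (chromosome 10), 4 of 9 of cluster C (chromosome 7) and 6 of 9 of cluster D (chromosome 3). The other genes of the family were not analysed here. Fat came from 13 female rats of the outbred Sprague Dawley strain, with 1 array per animal. In 6 of them, daughters 619, 620, 624, 629, 660 and 663, the father had eaten pellets with 43% fat. In the other 7, daughters 622, 627, 631, 656, 658, 662 and 664, the father had eaten standard chow with 9% fat. Every father was mated at 15 weeks with a chow-fed female, every daughter was weaned onto chow at 3 weeks, and fat was taken at 14 weeks. The labels give the tissue as fat and name no depot. They do not say which daughters are sisters, so p-values measure only the spread between these samples, which may be closer kin within a group.

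Hox genes encode homeodomain transcription factors that give cells along the body their position. Within a cluster the genes of low number act towards the head and those of high number towards the tail, and genes of the same number in different clusters are called a paralog group. Fat cells and their progenitors keep part of this code in adult life, so that subcutaneous and visceral depots differ in the Hox genes they express. A piece of fat mixes many cell types, and fewer cells of a type and less RNA per cell cannot be told apart in these data.

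The promoters below, from RefSeq on assembly GRCr8, show a pair of genes in cluster A and a pair in cluster D, each with a member that was above the dim level defined below on at least 12 arrays and a member that was below it on every array. Each runs 5′ to 3′ on the strand of its gene, from 250 bases before the start to 50 after it, with CG dinucleotides, the sites of DNA methylation, in capitals. Hoxa7 lies at chr4:82648192-82648491 and Hoxa11 at chr4:82676752-82677051, both on the minus strand, and Hoxd9 lies at chr3:80007756-80008055 and Hoxd10 at chr3:80001697-80001996, both on the plus strand.
Hoxa7: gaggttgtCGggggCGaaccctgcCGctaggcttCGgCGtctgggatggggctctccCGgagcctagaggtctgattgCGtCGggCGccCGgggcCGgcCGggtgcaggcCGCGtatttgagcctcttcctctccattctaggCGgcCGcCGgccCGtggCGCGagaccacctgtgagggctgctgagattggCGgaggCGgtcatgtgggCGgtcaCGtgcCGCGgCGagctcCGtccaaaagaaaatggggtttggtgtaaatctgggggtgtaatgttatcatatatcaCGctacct
Hoxa11: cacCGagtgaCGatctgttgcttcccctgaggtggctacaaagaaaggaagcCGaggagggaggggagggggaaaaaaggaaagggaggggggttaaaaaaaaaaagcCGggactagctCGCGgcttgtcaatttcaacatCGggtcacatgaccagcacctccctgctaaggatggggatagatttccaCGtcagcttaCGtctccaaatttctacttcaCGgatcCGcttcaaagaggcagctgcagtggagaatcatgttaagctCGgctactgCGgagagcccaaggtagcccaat
Hoxd9: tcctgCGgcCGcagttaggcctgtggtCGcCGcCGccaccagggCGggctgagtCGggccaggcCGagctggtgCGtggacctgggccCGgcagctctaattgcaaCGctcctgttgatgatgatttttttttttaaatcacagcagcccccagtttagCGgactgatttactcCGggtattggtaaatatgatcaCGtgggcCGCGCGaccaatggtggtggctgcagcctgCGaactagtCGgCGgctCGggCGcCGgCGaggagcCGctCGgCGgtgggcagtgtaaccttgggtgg
Hoxd10: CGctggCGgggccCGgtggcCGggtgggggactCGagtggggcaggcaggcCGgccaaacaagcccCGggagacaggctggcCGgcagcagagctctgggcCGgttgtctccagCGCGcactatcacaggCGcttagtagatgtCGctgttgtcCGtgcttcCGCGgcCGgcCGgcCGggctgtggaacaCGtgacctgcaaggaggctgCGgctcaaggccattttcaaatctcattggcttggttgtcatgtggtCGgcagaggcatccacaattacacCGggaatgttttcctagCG
Hoxa7 held 29 CG dinucleotides and Hoxa11 held 13, and Hoxd9 held 27 and Hoxd10 held 24. Of the 33469 rat promoters of this length, 11.5% had as many as Hoxa7, 35.3% as many as Hoxa11, 13.9% as many as Hoxd9 and 18% as many as Hoxd10. A promoter was found for 11 of the 22 Hox genes, with 6 to 36 CG dinucleotides each, against a median of 7 over all promoters. The lowest count was that of Hoxc4, above the dim level on all arrays, and the highest that of Hoxd13, below it on every array. Hoxa2 and Hoxa4, both above it on all arrays, held 9 and 34. The letters TATAAA, searched on both strands, occurred in 1 of the 11, Hoxd13, against 14.2% of all promoters. The letters TGATNNAT, searched on both strands as a pattern bound by Hox proteins with their Pbx partners, occurred in 2, Hoxa2 and Hoxa7, against 9.1% of all promoters. Methylation was not measured, and a match is a description of the letters only.

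The arrays hold log2 levels that the authors made with RMA, which brings arrays toward a common distribution, and the medians of the 13 arrays lay between 7.66 and 7.72. Control-father daughter 658 stood apart from the other arrays. Its values had the smallest standard deviation over all probes, 1.79, against 1.86 to 1.96 on the other arrays, and 55.6% of all genes lay outside the range of the other 12 arrays. The next smallest were control-father daughter 631 and high-fat-father daughter 660, at 1.86 each. By group, the standard deviation was 1.86 to 1.96 in daughters of high-fat fathers and 1.79 to 1.94 in daughters of control fathers. Markers of skeletal muscle averaged 11.93 in high-fat-father daughter 629 and 9.23 in 619, and 12.03 in control-father daughter 662 and 11.89 in 664, against 7.16 to 7.28 in the other animals. Adipocyte markers were above the dim level on all arrays for all 8 genes listed. Precision is limited by the number of arrays.

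The Hox genes read above the dim level on all arrays were all of paralog groups 2 to 7, and none of the 5 measured genes of groups 10 to 13 reached it on any array. The dim level of an array was the 95th percentile of 1187 olfactory and vomeronasal receptor genes, taken as genes with little transcript in fat, and it lay between 7.16 and 7.98. It is a rough bound, since probes differ in affinity. Of the 14 Hox genes in paralog groups 1 to 8, 8 were above it on all 13 arrays and 2, Hoxb2 and Hoxb8, on none. Of the 3 in group 9, 0 were above it on all arrays and 0 were below it on all. Over all members this was 8 of 22, or 36.4%, against 49.5% of all 14506 genes. Another dim level, the 99th percentile, left 5 members, and without control-father daughter 658 the count was 11.

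The 8 members above the dim level on all arrays were Hoxa2, Hoxa4, Hoxa5, Hoxa7, Hoxb3, Hoxb4, Hoxc4 and Hoxc5. Hoxa5, which patterns the lung and neck skeleton in the mouse, was at least 2.57 log2 units above the dim level of every array. The smallest margin of Hoxc4 was 0.08, in control-father daughter 658. Hoxa2, which patterns the pharyngeal arches in the mouse, cleared it by 0.16 in control-father daughter 631, and Hoxc5 by 0.24 in control-father daughter 658. Hoxb7, Hoxc9 and Hoxd9 were below the dim level only in control-father daughter 658, with margins of -0.17, -0.82 and -0.10 log2 units. Hoxd1 was below it only in control-father daughter 631, at 7.76 against a dim level of 7.78. It read lower in control-father daughter 664 (7.68) and high-fat-father daughter 663 (7.72), where the dim levels were 7.46 and 7.41. The dim level was highest on the arrays of smallest spread, 7.98 in 658, 7.78 in 631 and 7.67 in 660. A reading below it on 1 array thus depends on the dim level of that array too. Hoxd4 was above the dim level on 11 arrays, Hoxd3 on 6 and Hoxb9 on 1. The 7 members below it on every array were Hoxa11, Hoxb2, Hoxb8, Hoxb13, Hoxc12, Hoxd10 and Hoxd13. Hoxa11 and Hoxd13 pattern the limb and the genital tract in the mouse, and Hoxb13 acts in the prostate and tail.

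**Figure D1:**
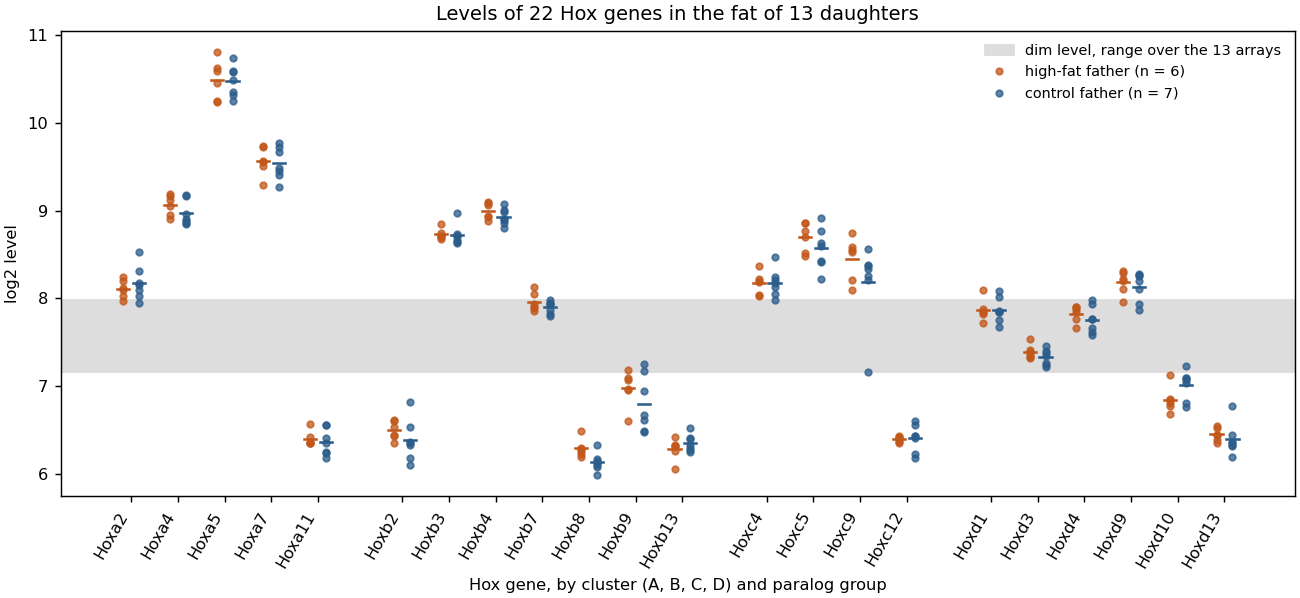
Log2 level of each Hox gene on every array, with daughters of high-fat fathers to the left of daughters of control fathers within each gene lines at group means, and the range of the dim level over the 13 arrays in grey. Hoxa5 and Hoxa7 lie above the grey band on all arrays, and the 5 members of paralog groups 10 to 13 lie below the dim level of their own array.

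No Hox gene passed the test between daughters of high-fat and of control fathers, and the groups overlapped in each gene. limma's moderated test with Benjamini-Hochberg adjustment over all 14506 genes called 0 of the 22 at an adjusted p under 0.05, where it called 0 of all genes. At an unadjusted p under 0.05 it called 1 member, Hoxb8, against 7.96% of all genes. By direction this was 1 member higher and 0 lower, against 5.42% and 2.54% of all genes. The median difference between the daughters of high-fat and of control fathers was 0.05 on the log2 scale over the members and 0.03 over all genes. The members' median was 0.01 with arrays centred on their medians and 0.008 with the standard deviation of each array as a covariate. The mean was higher in daughters of high-fat fathers for 16 members and lower for 6. A higher mean was also found in 58% of all genes, so the members' share of 72.7% is read against that. Differences ran from -0.17 in Hoxd10 to 0.27 in Hoxc9, and members with groups that did not overlap numbered 0, against 0.0827% of all genes.

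Among paralog groups 2 to 4, 0 of the 7 genes named passed the test. Hoxa2 averaged 8.11 ± 0.10 (SD, n = 6) in daughters of high-fat fathers and 8.18 ± 0.19 (SD, n = 7) in daughters of control fathers, a difference of -0.07 ± 0.09 (SE). Hoxa4, which takes part in patterning the neck vertebrae in the mouse, had levels of 8.90 to 9.19, with a median of 9.09, in daughters of high-fat fathers and 8.85 to 9.18, with a median of 8.90, in daughters of control fathers. The highest and lowest values of the groups nearly coincide, and the difference was 0.09 ± 0.08 (SE, adjusted p = 0.58 by limma). Hoxb3 differed by 0.01 ± 0.06 and Hoxb4, a regulator of blood stem cells, by 0.07 ± 0.06. Hoxc4 differed by -0.005 ± 0.08 and the dim Hoxb2 by 0.11 ± 0.10. Hoxd3 differed by 0.07 ± 0.06. Adjusted p-values of these 7 genes in limma were between 0.58 and 0.98. The signs of Hoxb3 and Hoxc4 turned when single arrays were left out, and that of Hoxb3 also when arrays were centred on their medians. Single arrays and settings also moved the sizes: Hoxa2 was -0.01 without control-father daughter 622 and -0.11 without 631, and Hoxd3 was 0.04 without high-fat-father daughter 620. Hoxb2 was 0.07 without control-father daughter 658, 0.19 without 662 and 0.01 with the standard deviation of each array as a covariate, and Hoxa4 was 0.00 after renewed quantile normalization.

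Among paralog groups 5 to 8, Hoxa5 had levels of 10.23 to 10.80 with a median of 10.52 in daughters of high-fat fathers, and of 10.25 to 10.74 with a median of 10.49 in daughters of control fathers. The highest values stood in high-fat-father daughter 629 (10.80) and control-father daughter 662 (10.74), both rich in muscle markers, while the muscle-rich control-father daughter 664 read 10.25. The part of muscle in this was not tested. The difference was 0.02 ± 0.10 (SE, adjusted p = 0.94 by limma). Hoxa7 differed by 0.02 ± 0.09 and Hoxc5 by 0.13 ± 0.11, with adjusted p of 0.92 and 0.58. Without control-father daughter 658 the difference of Hoxc5 was 0.07, and with the standard deviation of each array as a covariate it was -0.03. Hoxb8, known for a role in myeloid progenitors, ran from 6.19 to 6.49 with a median of 6.28 in daughters of high-fat fathers and from 5.99 to 6.33 with a median of 6.13 in daughters of control fathers. The values overlap, and all are below the dim level. The difference was 0.16 ± 0.06 with an unadjusted p of 0.024 and an adjusted p of 0.53 in limma. It lost its place under an unadjusted p of 0.05 without high-fat-father daughter 660, which held the highest value, or without control-father daughter 631, which held the lowest.

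In paralog groups 9 and 10, Hoxc9, which sets thoracic identity of motor neurons in the mouse, showed the widest spread. It read 8.10 to 8.74 with a median of 8.54 in daughters of high-fat fathers and 7.16 to 8.56 with a median of 8.34 in daughters of control fathers. The lowest value of the controls, 7.16, was that of daughter 658, and the other 6 controls lay within the range of the daughters of high-fat fathers. The difference was 0.27 ± 0.19 (SE; 95% interval -0.14 to 0.68; adjusted p = 0.54 by limma). It was 0.10 without control-father daughter 658 and -0.05 with the standard deviation of each array as a covariate. After renewed quantile normalization the difference of Hoxc9 was 0.25, with arrays centred on their medians 0.23, and without the 4 muscle-rich arrays 0.30. Hoxb9 differed by 0.18 ± 0.14 (adjusted p = 0.56). Hoxd10, which shapes motor neurons of the hindlimb in the mouse and was dim here, read 6.68 to 7.13 with a median of 6.82 in daughters of high-fat fathers and 6.77 to 7.23 with a median of 7.07 in daughters of control fathers. The groups overlap, and the difference was -0.17 ± 0.09 (SE), with an unadjusted p of 0.068 and an adjusted p of 0.53 in limma.

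**Figure D2:**
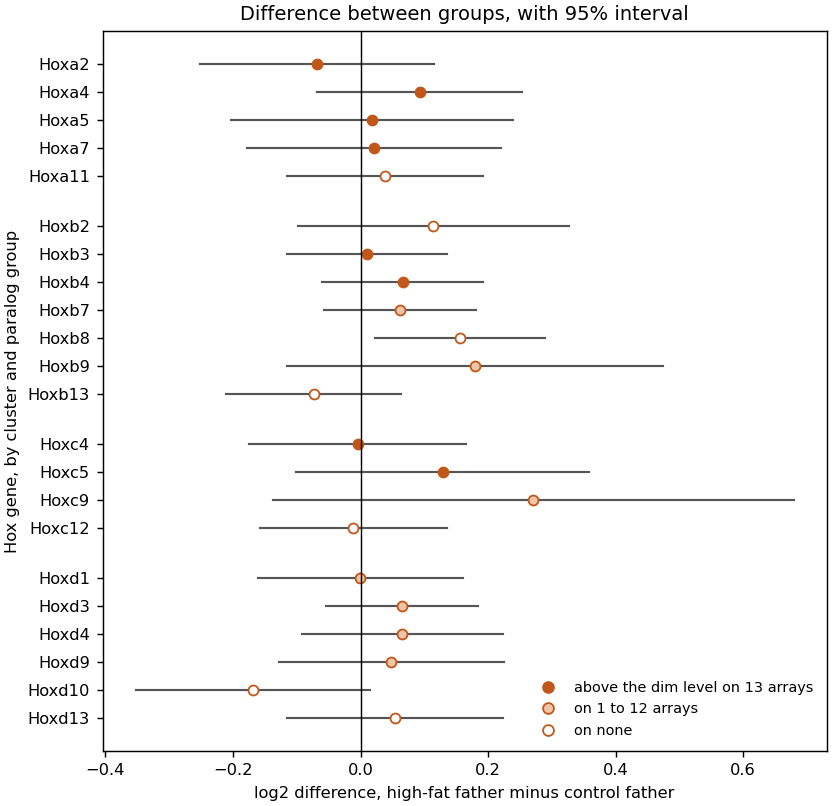
Difference of each Hox gene on the log2 scale between daughters of high-fat and of control fathers, with 95% intervals from limma. Of the 22 intervals only that of Hoxb8 leaves out 0, and its adjusted p was 0.53.

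Of the genes that act with or on Hox genes, 0 passed the adjusted test. The cofactor list holds the Pbx, Meis and Pknox families, homeodomain proteins that bind DNA with Hox proteins. Of its 7 measured genes 6 were higher and 1 lower in daughters of high-fat fathers, with 0 under an unadjusted p of 0.05 and a median difference of 0.05. Pbx2 and Pbx4 had the lowest p and differed by 0.06 ± 0.05 and 0.06 ± 0.06. Of 14 chromatin regulators that keep Hox clusters silent or open, 12 were higher and 2 lower, with a median of 0.07. Kdm6b, a histone demethylase that removes the Polycomb mark, was the 1 of them under an unadjusted p of 0.05, at 0.16 ± 0.06 (SE, adjusted p = 0.53 in limma). Men1, which works with an activating histone methyltransferase, differed by 0.10 ± 0.05, Wdr5, a subunit of such complexes, by 0.15 ± 0.09 and Ezh1, a Polycomb methyltransferase, by 0.15 ± 0.08. In control-father daughter 658, 8 of the 14 were below all other arrays, among them Men1, Wdr5 and Ezh1, and 6 were within. There 55.6% of all genes lay outside the other arrays, and the part of that array in these differences was not tested. Of 10 upstream regulators, which include retinoic acid receptors and Cdx factors, 5 were higher and 5 lower, and 0 had an unadjusted p under 0.05. Gdf11, a ligand that sets the trunk-to-tail transition in the mouse, differed by 0.07 ± 0.06, and Cyp26b1, which breaks down retinoic acid, by -0.14 ± 0.15. The median difference over all genes was 0.03, with a higher mean in 58% of them and an unadjusted p under 0.05 in limma for 7.96%.

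Known marks of fat position varied between animals but did not pass the test between groups. Tbx15, a T-box factor that marks subcutaneous depots, read 7.85 to 9.59 with a median of 8.05 in daughters of high-fat fathers and 6.98 to 8.99 with a median of 8.0 in daughters of control fathers. The highest values were in muscle-rich animals, 9.59 in high-fat-father daughter 629 and 8.99 in control-father daughter 662 and 8.68 in 664. High-fat-father daughter 619, also rich in muscle markers, read 8.02, and the lowest value was in control-father daughter 658. The difference was 0.15 ± 0.32 (SE, adjusted p = 0.82 by limma). Of the other subcutaneous position genes, Sfrp2, a secreted Wnt modulator, had the lowest p and differed by -0.45 ± 0.33 (adjusted p = 0.55 by limma). The dim Shox2 differed by 0.06 ± 0.07, and En1 was not matched. Wt1, a factor of visceral fat and mesothelium, differed by -0.28 ± 0.25, and the dim Tcf21 by -0.10 ± 0.13, with adjusted p of 0.60 and 0.71 in limma. Ucp1, the uncoupling protein of brown and beige fat, was highest in high-fat-father daughters 629 and 663, at 11.02 and 10.96, and in control-father daughters 662 and 658, at 9.76 and 9.28. Mesothelial markers were lower in daughters of high-fat fathers for 8 of 8 genes, with a median of -0.36. Of them 2 had an unadjusted p under 0.05 in limma, Krt18 (-0.27 ± 0.12) and Bnc1 (-0.37 ± 0.17). Krt18 was above the dim level on 1 array and Bnc1 on 9. Adipocyte markers were higher for 7 of 8 genes, with a median of 0.10, and 3 had an unadjusted p under 0.05, Fabp4 (0.20 ± 0.06), Lipe (0.16 ± 0.05) and Plin1 (0.18 ± 0.06). In neither list did a gene pass the adjusted test, and over all genes 6087 of 14506 had a lower mean and 8419 a higher one, with 2.54% and 5.42% under an unadjusted p of 0.05. The part of these cells in the Hox differences was not tested. With array standard deviation as a covariate, 407 of all genes had an unadjusted p under 0.05 in limma, against 1155 without it. The part of array spread in the list differences was not tested. Of mesothelial markers 3 of 8 were above the dim level on all arrays, and the mean level of the list was 7.54 to 8.59 in daughters of high-fat fathers and 7.60 to 8.93 in daughters of control fathers.

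Between animals, the median standard deviation over the 13 arrays was 0.14 log2 units for the 22 members. It was 0.15 for the 8 members above the dim level on all arrays and 0.15 for all genes above it. Hoxc9 had the highest of the members, 0.39, a value reached by 2.83% of genes above the dim level, and its highest and lowest arrays differed 3.00-fold. The value of Hoxc9 rests on control-father daughter 658: over the other 12 arrays its standard deviation was 0.19, reached by 17% of genes above the dim level, and its highest and lowest arrays differed 1.56-fold. Hoxb9, above the dim level on 1 array only, had 0.28 over all arrays. Without daughter 658 it had 0.26, the highest of the members. Hoxc5 had 0.21 over all arrays and 0.18 without daughter 658. Hoxb3 had 0.09, and 90.3% of genes above the dim level varied at least as much.

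**Figure D3:**
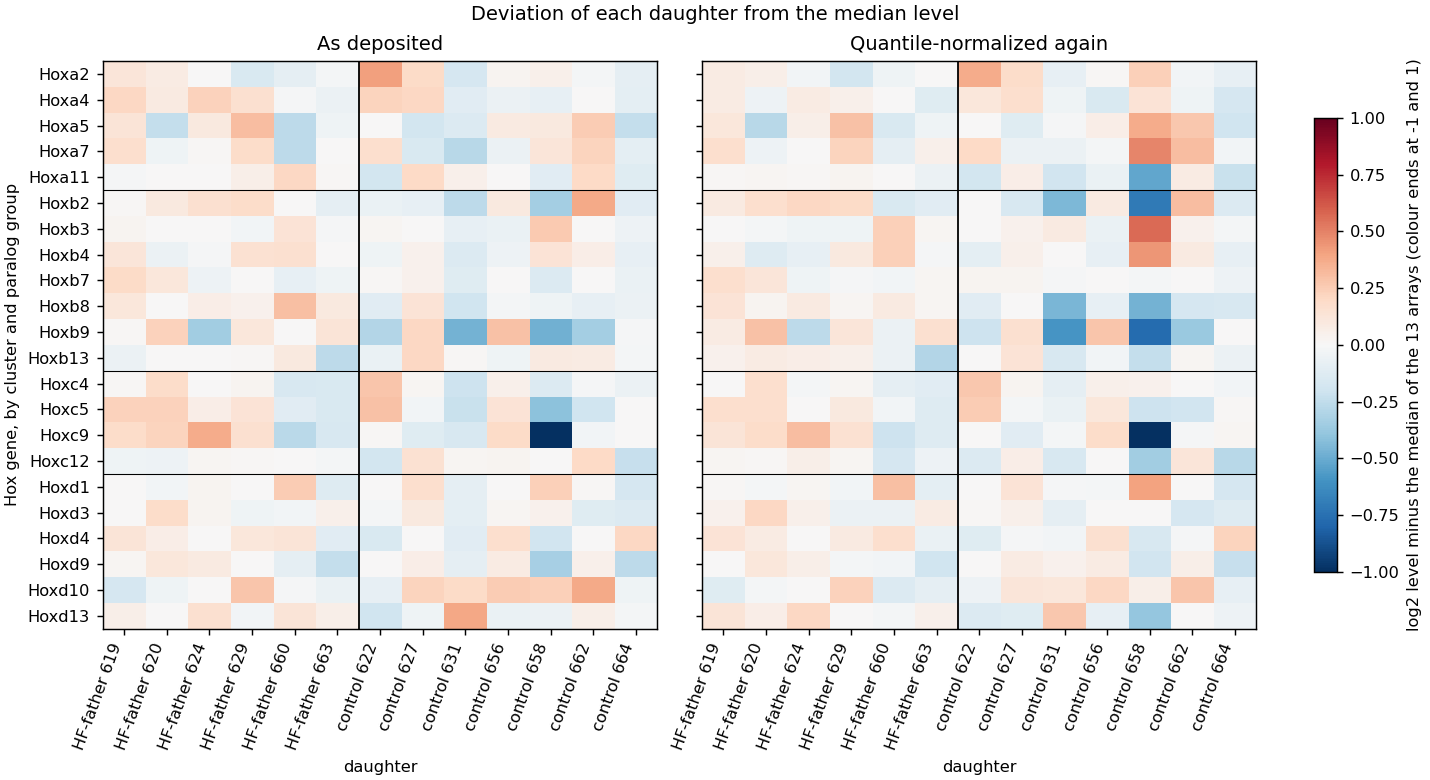
Deviation of each Hox gene on each array from its median over all arrays, in log2 units, as deposited (left) and after renewed quantile normalization (right), with daughters of high-fat fathers left of daughters of control fathers. The darkest cell is Hoxc9 in control-father daughter 658, and as deposited control-father daughter 631 holds the lowest value of 7 members.

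Daughter 658 was singled out after its values were seen. Its Hoxc9 level of 7.16 compared with 8.10 to 8.74 on the other 12 arrays, a deviation of -1.22 from their median, or 2.33-fold, and the 23rd lowest deviation of 14506 genes. Genes of like level deviated by a median of -0.20, and 5% of them by -0.59 or less. Among other members, Hoxb9 read 6.48 against 6.49 to 7.25, and Hoxb3 was higher than on any other array, 8.97 against 8.63 to 8.85. Of the 22 members, 7 had their lowest value in 658 and 1 its highest, and control-father daughter 631 also held the lowest of 7. The array also lay outside the others in some genes of position and of other tissue and not in others. Of the subcutaneous position genes 2 of 3 were below all other arrays and 1, Shox2, within them, and of the visceral ones 2 of 4 were above and 2, Nr2f1 and Thbd, within. Tbx15 read 6.98 against 7.85 to 9.59, Sfrp2 read 8.66 against 9.10 to 10.85, Wt1 read 9.30 against 7.47 to 8.80, and Tcf21 read 7.58 against 6.67 to 7.12. Tcf21 and Shox2 were below the dim level on every array. The deviation of Tcf21 was 0.79, where 5% of genes of like level deviated by 0.78 or more. Pgr, the progesterone receptor, read 9.75 against 5.88 to 6.36, the 3rd highest deviation. Of the female tract markers 3 of 6, Pgr, Fshr and Cyp11a1, were above all other arrays, 1, Msx1, was below them and 2 were within. Fshr (6.48) and Cyp11a1 (6.80) were still below the dim level of array 658, 7.98. Mammary epithelial markers were above all other arrays for 7 of 9 genes and within them for 2. Those 7 genes were below the dim level on every array. Trps1, the 1 marker of this list above the dim level on all arrays, read 10.41 against 10.06 to 10.76 and was within. Over all genes, 55.6% lay outside the range of the other 12 arrays. None of the 6 tract markers was above the dim level on all arrays, and whether other tissue in this piece bears on Hoxc9 was not tested.

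Because this array also had the smallest spread, its levels were also read after renewed quantile normalization, a comparison added after seeing the data. Hoxc9 then read 7.04 in daughter 658 against 8.13 to 8.65 on the other arrays, with a deviation of -1.31. Tbx15 (6.81 against 7.86 to 9.54) was below and Wt1 (9.59 against 7.51 to 8.78) above all other arrays. Renewed normalization put several bright members above all other arrays in 658, among them Hoxa5 (10.82 against at most 10.74), Hoxa7 (9.95 against 9.77), Hoxb3 (9.24 against 8.91) and Hoxb4 (9.37 against 9.17). It placed 9 members lowest and 5 highest there, 63.6% of the members, against 42.3% of all genes. Before it, the shares were 36.4% and 55.6%.

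**Figure D4:**
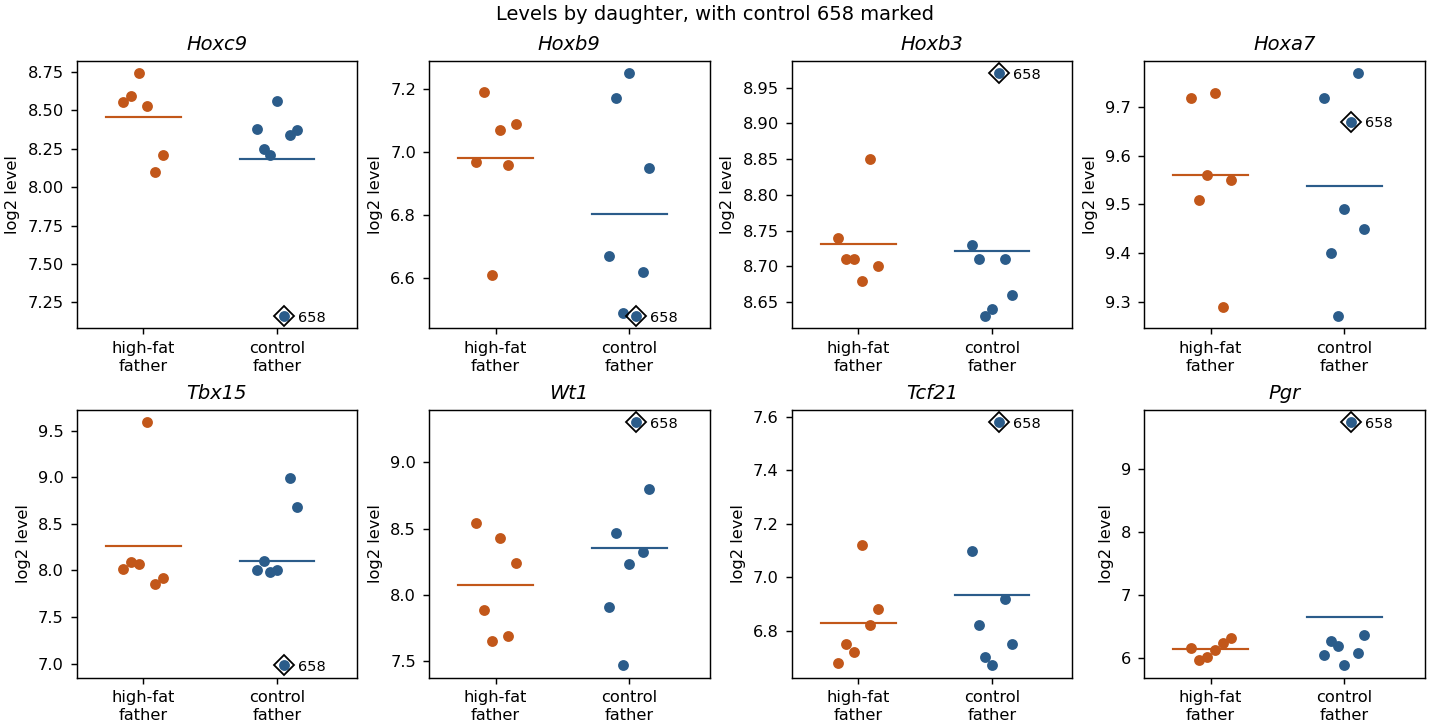
Log2 levels of Hoxc9, Hoxb9, Hoxb3, Hoxa7, Tbx15, Wt1, Tcf21 and Pgr on every array, as deposited, with lines at group means, control-father daughter 658 marked and a separate scale in each panel. Its Hoxc9, Hoxb9 and Tbx15 values lie below those of all other arrays, and its Hoxb3, Wt1, Tcf21 and Pgr values lie above. Tcf21 was below the dim level on every array.

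Of the members above the dim level on all arrays, Hoxc5 had the widest range, 8.22 to 8.92. Its level followed the overall spread of each array, a measure added after seeing the data. Across the 13 arrays Hoxc5 correlated with the array standard deviation with Pearson r = 0.87 and Spearman rho = 0.81 (adjusted permutation p = 0.00021 and 0.0026, 8 relations), and r was 0.74 without control-father daughters 658 and 631. Hoxc9 gave r = 0.93 and rho = 0.87 with the same measure (adjusted permutation p = 8e-05 and 0.00096), and r was 0.88 without those 2 arrays. The unadjusted permutation p of 1e-05 for that r is the smallest that 100000 permutations can give. Hoxc5 and Hoxc9 correlated with r = 0.78 and rho = 0.78 (adjusted permutation p = 0.00098 and 0.005), and r was 0.78 without high-fat-father daughter 624 and control-father daughter 658. The part of array spread in these levels was not otherwise tested. How many other genes followed the array spread as closely was not counted, and the genes named below as most like Hoxc5 also followed it.

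Against the marker lists, 5 relations of Hoxc5 were computed and adjusted together. Mammary epithelial markers, of which 1 of 9 was above the dim level on all arrays, gave r = -0.82 and rho = -0.71 (adjusted permutation p = 0.00083 and 0.021), and r = -0.62 without control-father daughters 658 and 631. Female tract markers gave r = -0.77 and rho = -0.89 (adjusted permutation p = 0.0003 and 0.00085), and r = -0.82 without control-father daughters 658 and 622. Both relations were lost when values were quantile normalized again, with r of 0.01 and -0.48. Subcutaneous position genes gave r = 0.53 and rho = 0.36 (adjusted permutation p = 0.097 and 0.28), and r = 0.15 without control-father daughters 658 and 656, so that relation rests on those arrays. Progenitor markers gave r = 0.47 and rho = 0.48 (adjusted permutation p = 0.13 and 0.17), with r = 0.51 without the 2 farthest arrays. Mesothelial markers gave r = -0.18 and rho = -0.16 (adjusted permutation p = 0.56 and 0.60), with r = 0.11 without control-father daughters 664 and 658. The levels of 4 other lists fell into separate clusters of animals, and no pooled r is given for them.

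**Figure D5:**
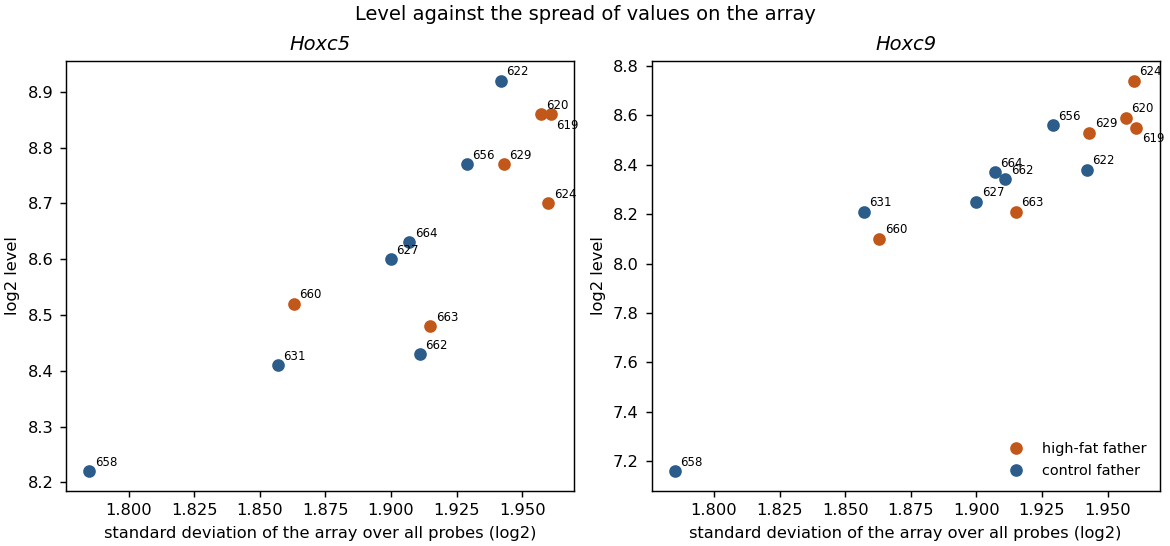
Log2 levels of Hoxc5 and Hoxc9 against the standard deviation of each array over all probes, 1 point per animal. Both are higher where the array spread is wider, and control-father daughter 658 has the smallest spread and the lowest level of both.

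Among 7177 other genes above the dim level, those whose pattern was most like that of Hoxc5 over the 13 arrays were Ctc1 and Kpna5 (Pearson r = 0.94 each), Gabpb2, Csnk1g1 and Tgfbrap1 (0.93 each) and Cct7 (0.92). Those most opposite were Defb25 (-0.94), Prok2 (-0.90), Spaca4 (-0.89), Or9s15 (-0.88), and Lce1m and Cabp4 (-0.87 each). These 12 genes themselves correlated with the array standard deviation, from 0.86 to 0.94 for the like ones and from -0.86 to -0.89 for the opposite ones. The arrays share that spread, so the likeness is a description of these arrays.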

How the data were processed

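Fat RNA of 13 daughters was measured on 1 Affymetrix array each. The deposited table holds log2 levels of 29214 probes, which the authors made with RMA and Partek, as named in the submitters' processing notes. Their versions and order are not stated in the labels. Values of 3.24 to 14.54 show that the levels are log2. No scanner files were used, so detection per probe was not assessed. Of the probes 15310 had 1 gene symbol in the platform annotation and 323 had several and were left out. For 527 genes with several probes the brightest was kept, leaving 14506 genes. All 22 Hox symbols matched RefSeq, and 16 probe accessions belonged to the matched gene. Those of Hoxa4, Hoxa5, Hoxb2, Hoxb8, Hoxd3 and Hoxd9 did not, and these genes were matched by symbol and gene identifier only. Hoxa4, Hoxa5, Hoxb3, Hoxc4, Hoxc5 and Hoxd4 overlap other RefSeq genes, and their probes may share signal with them.

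Groups were compared with limma 3.58.1 (lmFit, eBayes) in R 4.3.3, two-sided, over all genes, with no covariate. Correlations used 100000 permutations. The members, lists and rule for named genes were chosen with earlier results of these data known. Named with their differences are the members above the dim level on all arrays and the 8 of lowest p. Of each list whose group difference is described, 2 to 4 genes of lowest p are named, beside Tbx15, Shox2, Wt1, Tcf21 and Ucp1, and Hoxc9, Pgr and daughter 658 were singled out after their values were seen. Alternatives were renewed quantile normalization, median centring, array weights, trend, unmoderated fits, covariates, another probe rule and leaving out each array. The fit was tested on simulated data. Groups came from the titles, and no 2 arrays were near copies (pairwise r 0.946 to 0.995).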

Additional observations from a re-analysis of the deposited data

Results flagged for a closer look

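In 7 of the 54 gene-by-group sets of levels tested, 1 animal lay far from the others of its group by Dixon's ratio of gap to range. Hox genes made up 44 of these sets and held 5 of the flags. Chance flags about 1 in 20 independent groups. These sets share the same 13 arrays, so the number of flags cannot be judged against that share. Among daughters of high-fat fathers, daughter 660 was far above the others for Hoxa11 (6.57) and Hoxb8 (6.49), and daughter 629 for Hoxd10 (7.13), Tbx15 (9.59) and Shox2 (6.78). All of these but Tbx15 are below the dim level of their array. Among daughters of control fathers, daughter 658 was far above the others for Hoxb3 (8.97) and far below them for Hoxc9 (7.16).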

How the results depend on the processing

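No Hox gene passed the adjusted test under any setting run, and no paired analysis was possible because the labels give no litter or pairing. At an unadjusted p under 0.05 the member count was 0 among genes above the dim level only, since Hoxb8 is dim, and 0 to 2 when single arrays were left out (0 without high-fat-father daughter 660 or control-father daughter 631, 2 without high-fat-father daughter 629 or control-father daughters 622, 662 or 664). The count over all genes was 2179 with array weights, 611 with the number range and 407 with array standard deviation as a covariate, 550 without the 4 muscle-rich arrays (chosen after seeing the data), and 508 to 2508 when single arrays were left out. The median member difference of 0.051 was 0.012 with arrays centred on their medians, 0.008 with array standard deviation as a covariate and 0.027 without the muscle-rich arrays. Leaving out single arrays, it ran from 0.032 to 0.069, and the count above the dim level from 8 to 11, or 5 at the 99th percentile. Signs turned, with the cause not tested, after renewed quantile normalization for Hoxa5 (-0.057), Hoxa7 (-0.068), Hoxb3 (-0.068) and Hoxb4 (-0.016), after median centring for Hoxa5 (-0.021), Hoxa7 (-0.017) and Hoxb3 (-0.028), with array weights for Hoxc4 (0.008), with array standard deviation as a covariate for Hoxa5 (-0.016), Hoxa7 (-0.028), Hoxc5 (-0.032) and Hoxc9 (-0.050), and without the muscle-rich arrays for Hoxa5 (-0.083) and Hoxa7 (-0.034). Leaving out single arrays gave -0.044 to 0.070 for Hoxa5, -0.022 to 0.075 for Hoxa7, -0.012 to 0.052 for Hoxb3 and -0.043 to 0.044 for Hoxc4. The correlation of Hoxc5 with subcutaneous position genes was 0.61 (adjusted permutation p = 0.041) on deviations from group means. That with mesothelial markers was 0.039 without control-father daughter 658 and 0.107 without the 2 farthest arrays. Those with mammary and female tract markers were 0.013 and -0.481 after renewed normalization.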
